A study of Mus musculus with 14 samples.

Results

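The sites described are those bound by the transcription factor EBF1 in mouse pro-B cells when EBF1 lacks its C-terminal domain (dC) and when it is whole (wt). They come from a pair of ChIP-seq peak lists, 1 library per form, with 11147 dC and 6155 wt peaks on chromosomes 1 to 19, X and Y. Together these are 17302 of the 196179 peaks in the 9 lists of the series. A peak counted as called with the other form when at least 1 bp of it was overlapped there, which gave 6454 dC-only peaks, 1436 wt-only peaks and 4719 shared sites, counted as wt intervals (4693 as dC intervals). The series profiles EBF1 and Brg1, the ATPase of the BAF chromatin remodelling complexes, in cells with different EBF1 versions. Both EBF1 libraries came from A-MuLV cells, a pro-B culture made permanent by infection with the Abelson leukaemia virus, derived from EBF1 fl/fl fetal liver of strain C57BL/6. In them the cells' own EBF1 had been replaced by the retroviral construct pMys_EBF1_dC_IRES_GFP or pMys_EBF1_wt_IRES_GFP, so both forms are exogenous and reach the cell through the same vector. Both lines carry the pro-B stage label, were fixed for 10 min in 1% formaldehyde alone, and were precipitated with 4 µg of the same anti-EBF1 antibody. The number of clones behind each line is not given in the labels, and expression was not measured, so B-cell markers could be read here only as EBF1 sites near their genes.

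EBF1 is required for the B lineage and acts with Pax5, Foxo1 and E proteins to switch on genes of the pre-B-cell receptor (pre-BCR), the signalling complex that tests the first immunoglobulin chain. It binds DNA as a dimer, through an N-terminal DNA-binding domain and a helix-loop-helix dimerisation domain, at a palindrome whose core is CCCNNGGG. Its C-terminal domain lies outside both and is known for roles in transcriptional activation and in opening closed chromatin.

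Promoter sequences under EBF1 summits showed that palindrome with either form, and 12 are printed as examples of the site classes. They are RefSeq sequences (GRCm38.p6) cut from windows of 250 bases before to 50 after a gene's transcription start (TSS), up to 60 bases to each side of the summit, 5′ to 3′ along the gene's strand. Capitals mark every base covered by a match to CCCNNGGG. The first group holds the highest dC-only sites by fold in a promoter window: Mxi1, whose product opposes MYC, Gimap6, a lymphocyte GTPase gene, and Nfkb2, which encodes an NF-kappa-B subunit.
Mxi1, chr19:53329385-53329462, plus strand: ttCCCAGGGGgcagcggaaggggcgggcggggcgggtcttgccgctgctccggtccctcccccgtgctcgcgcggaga
Gimap6, chr6:48708356-48708476, minus strand: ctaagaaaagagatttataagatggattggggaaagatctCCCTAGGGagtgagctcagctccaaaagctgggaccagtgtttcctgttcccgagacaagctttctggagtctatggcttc
Nfkb2, chr19:46304643-46304763, plus strand: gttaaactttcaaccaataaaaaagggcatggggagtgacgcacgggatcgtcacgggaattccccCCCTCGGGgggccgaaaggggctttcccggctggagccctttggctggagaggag
The shared sites come next. Hdlbp, an RNA-binding protein gene, had the highest shared site by wt fold in a promoter window. The others are B-lineage genes: Igll1 and Vpreb1 encode the surrogate light chain of the pre-BCR, Cd79a its signalling chain, Cd22 an inhibitory receptor and Foxo1 a transcription factor.
Hdlbp, chr1:93478328-93478419, minus strand: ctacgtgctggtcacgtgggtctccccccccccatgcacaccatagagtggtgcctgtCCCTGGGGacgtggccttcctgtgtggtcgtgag
Igll1, chr16:16864144-16864235, minus strand: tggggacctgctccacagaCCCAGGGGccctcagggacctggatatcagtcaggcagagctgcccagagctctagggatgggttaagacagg
Vpreb1, chr16:16869338-16869458, minus strand: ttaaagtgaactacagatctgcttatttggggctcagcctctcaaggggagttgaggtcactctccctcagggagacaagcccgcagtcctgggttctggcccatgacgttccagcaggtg
Cd79a, chr7:24897277-24897397, plus strand: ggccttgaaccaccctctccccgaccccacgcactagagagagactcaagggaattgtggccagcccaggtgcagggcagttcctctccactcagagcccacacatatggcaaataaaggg
Cd22, chr7:30879010-30879130, minus strand: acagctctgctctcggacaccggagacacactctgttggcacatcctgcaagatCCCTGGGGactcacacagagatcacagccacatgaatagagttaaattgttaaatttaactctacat
Foxo1, chr3:52268222-52268342, plus strand: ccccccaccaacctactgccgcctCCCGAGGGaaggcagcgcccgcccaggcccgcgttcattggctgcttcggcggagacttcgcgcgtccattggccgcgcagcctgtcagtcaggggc
The last group holds the highest wt-only sites by fold in a promoter window, each at a gene known only by its model name.
Gm39984, chr2:167079270-167079390, minus strand: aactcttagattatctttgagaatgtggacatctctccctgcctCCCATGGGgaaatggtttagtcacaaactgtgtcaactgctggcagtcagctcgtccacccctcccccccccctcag
Gm5122, chr9:61016839-61016959, plus strand: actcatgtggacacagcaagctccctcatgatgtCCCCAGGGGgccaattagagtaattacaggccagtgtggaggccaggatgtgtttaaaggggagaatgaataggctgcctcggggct
Gm13816, chr2:92751469-92751531, plus strand: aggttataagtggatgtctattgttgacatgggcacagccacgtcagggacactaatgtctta
In the full windows, Gimap6, Hdlbp, Cd22, Foxo1 and Gm39984 also matched the longer palindrome, the core with T before and A after it. The Vpreb1, Cd79a and Gm13816 windows held no match to the core, which says only that these letters are absent from those windows.

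At these sites the authors' fold enrichment, the ChIP pileup at the summit over the local background, was 27.9 at Mxi1, 20.3 at Gimap6 and 18.6 at Nfkb2 in the dC list, and none of these was called with wt. Hdlbp had folds of 56.1 with dC and 38.9 with wt. Igll1 had 41.3 with dC and 36.5 with wt, Cd79a 21.3 with dC and 18.0 with wt, Cd22 15.9 with dC and 17.5 with wt, and Foxo1 16.4 with dC and 10.2 with wt. The wt-only promoter sites were low by comparison within their own list, at 11.5 for Gm39984, 10.3 for Gm13816 and 10.2 for Gm5122. Folds are used here to describe and rank peaks within a list and are set side by side across lists without a comparison.

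Both lists reached down to a −log10 q of 10.0, and their weakest peaks had similar pileups. The lowest summit pileup, solved from fold and p-value, was 22 reads in the dC list and 23 in the wt list, with medians of 34 with dC and 38 with wt. The median background was 2.65 with dC and 2.83 with wt. Each equalled the 5th percentile of its list, so many peaks of a list had the same low background. All solved pileups were whole to within 0.05. The depth of the libraries is unknown, and EBF1 below the calling floor would not be seen as a peak. With 1 library per form there was no spread between replicates and no test. The 95% intervals in parentheses are exact Clopper-Pearson intervals for counting error alone, and they set 1 library beside another rather than the EBF1 forms.

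Where both forms were called, their summits mostly lay close together, which pairing by overlap itself favours. At 4654 sites with 1 peak in each list the summits lay a median of 18 bp apart, and 88.2% lay within 50 bp. Only 30 dC peaks spanned more than 1 wt peak, and 5 wt peaks spanned more than 1 dC peak. Over these sites the folds of both lists gave a Spearman rho of 0.504 and a Pearson r of 0.568 on the log2 scale, a description across sites that share a library on each side. Within the dC list, dC-only peaks had a median width of 350 bp and fold of 7.41, against 456 bp and 12.9 for the dC intervals of shared sites. Within the wt list, wt-only peaks had medians of 326 bp and 7.84, and shared intervals 375 bp and 9.83.

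The classes were well separated in space. The shortest overlap that made a site shared was 169 bp (near Spr), then 178 bp (Ppp1r9b) and 191 bp (Tnrc6c), with wt folds of 5.99, 6.79 and 6.23. The nearest misses were wt-only peaks 83 bp from a dC peak near Ptpn1 (wt fold 8.10), 87 bp near Tcf7 (9.14) and 104 bp near Ifnar1 (9.14). Only 2.90% of the dC-only peaks had a wt peak within 1000 bp, and 3.48% of the wt-only peaks had a dC peak that close.

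The share of sites called with the other form followed the fold. Among quartiles of the dC list by fold, 14.2%, 23.0%, 44.9% and 86.3% of peaks were called with wt from lowest to highest. In the highest dC quartile, 383 peaks of fold 12.8 or more were dC-only. Sites at the top of either list were thus mostly common, and the dC-only class was largest among low peaks.

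**Figure D1:**
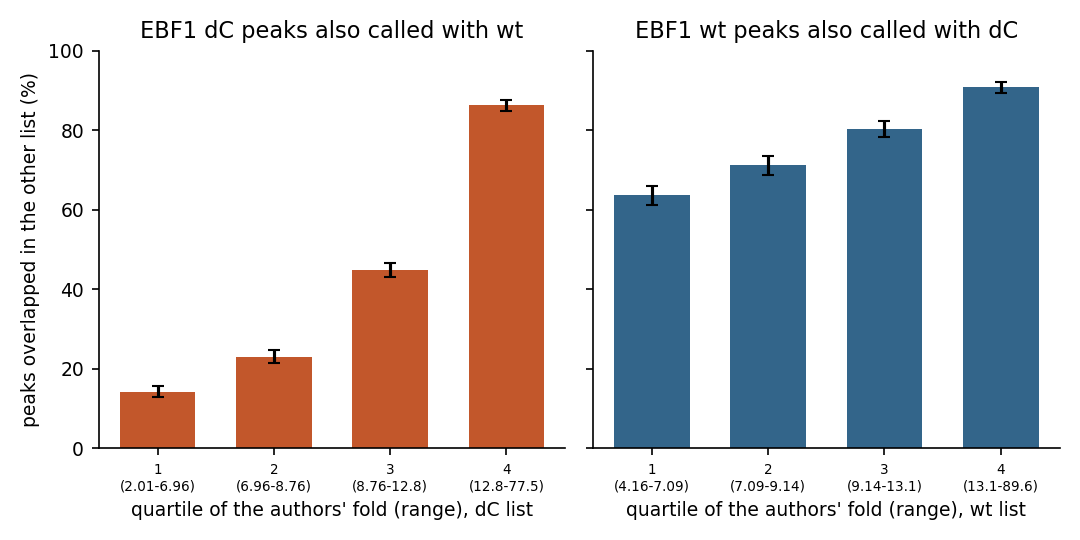
Share of EBF1 peaks overlapped in the other list (%) by quartile of the authors' fold, for dC peaks (left, orange) and wt peaks (right, blue), with exact 95% intervals. The dC share climbs from 14.2% to 86.3% over the quartiles, and the wt share from 63.7% to 90.9%.

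The wt-only sites stood apart by position: few of them lay at promoters. A summit within 250 bp of a TSS was found for 553 of 6290 dC-only sites (8.79%, 8.10-9.52%), 399 of 4587 shared sites (8.70%, 7.90-9.55%) and 22 of 1392 wt-only sites (1.58%, 0.993-2.38%). These counts use the chromosomes that the RefSeq promoter table covers. Not every gene has a start in that table, so a site at a missing start can count as far from a TSS. The dC-only site inside Prkdc, for one, was measured to the TSS of Gm41423, 523458 bp away. How such gaps fall on the classes was not tested. Within 1 kb the shares were 18.3% for dC-only (17.3-19.2%), 18.4% for shared (17.3-19.5%) and 4.96% for wt-only sites (3.88-6.23%). The median distance to a TSS was 12.6 kb for dC-only, 11.3 kb for shared and 20.7 kb for wt-only sites. The interval of the wt-only class overlapped neither of the others at either distance.

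The wt-only class was also more often far from a TSS of the promoter table. Sites over 100 kb from any TSS of that table made up 8.36% of the dC-only (7.69-9.07%), 7.35% of the shared (6.61-8.14%) and 15.1% of the wt-only class (13.3-17.1%). Without Igk, the immunoglobulin kappa locus, whose gene segments have no TSS in the table, the wt-only share was 12.7% (11.0-14.6%). Outside protein-coding gene bodies and over 1 kb from a TSS lay 34.1% of the dC-only, 35.6% of the shared and 46.0% of the wt-only sites.

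The low promoter share of wt-only sites held at each height of the wt list. From the lowest to the highest wt fold quartile, 6.51%, 4.76%, 3.68% and 2.22% of wt-only sites lay within 1 kb of a TSS, against 19.5%, 18.9%, 19.9% and 16.0% of shared sites. It was 5.13% (4.02-6.45%) without Igk, which held 48 of the wt-only peaks, and 6.34% with both lists held to equal length, where dC-only sites had 19.5%. Within the dC list, the lower 3 quartiles had more dC-only than shared sites near a TSS: 17.8%, 17.6% and 19.8% of dC-only sites against 10.6%, 10.6% and 14.8% of shared sites. In the highest dC quartile it was 18.98% of dC-only (15.1-23.3%) and 23.5% of shared sites (21.8-25.3%).

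The highest single sites followed the classes only in part. Of the 10 highest dC-only sites by fold, which include those nearest Odf1 (35.9), Tmem26 (29.9), Mxi1, Slc39a11, Gtf3c1, Lrp5, B3gnt2, Mc3r and Agpat4 (22.2), the one at Mxi1 lay within 1 kb of a TSS. Of the 10 highest wt-only sites, the one nearest Cenpm (fold 31.9) did. Those nearest Sds (40.5), Dio2 (38.4) and Mapk10 (33.7) were the farthest from a TSS of the promoter table. The Sds site lay inside the Sds gene body and was measured to the TSS of Rita1, 134 kb away. The others lay nearest Panx1, 1190005I06Rik, Ms4a14, LOC108167340, C2cd2l and Rorb.

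**Figure D2:**
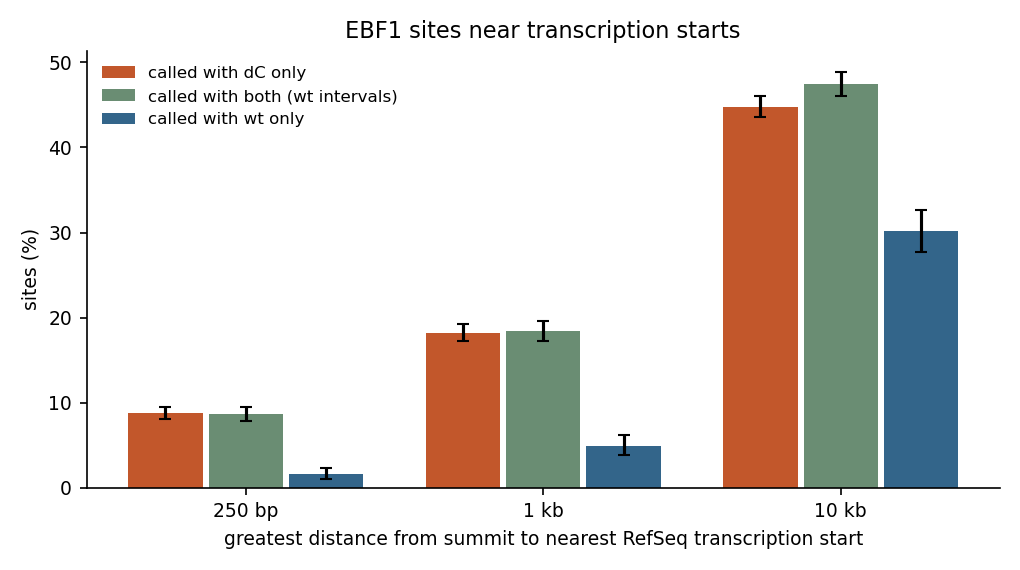
Share of EBF1 sites (%) whose summit lies within 250 bp, 1 kb or 10 kb of a transcription start in the RefSeq promoter table. Sites called with dC only are orange, with both forms green (wt intervals) and with wt only blue, with exact 95% intervals. The wt-only bars are the lowest at each distance, 1.58%, 4.96% and 30.2%.

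Over all folds, promoter windows with a dC-only summit held the EBF1 core less often than those with a shared summit, and farther from the summit. The core CCCNNGGG occurred in 188 of 405 windows with a dC-only summit (46.4%, 41.5-51.4%), 182 of 293 with a shared summit (62.1%, 56.3-67.7%) and 9 of 15 with a wt-only summit (exact interval 32.3-83.7%). Over all 32851 promoter windows it occurred in 13.7%. The palindrome reads the same on both strands, and its longer form, which contains the core, was in 8.64% of dC-only, 19.1% of shared, 13.3% of wt-only and 0.904% of all windows. Where a core was present, its centre lay within 25 bp of the summit at 48.9% of dC-only sites (41.6-56.3%), 67.6% of shared sites (60.3-74.3%) and 6 of 9 wt-only sites, with medians of 26, 13.5 and 12.5 bp. A match is a description of the sequence and not a measured site.

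Split by fold, the classes could not be told apart in the core. From the lowest to the highest quartile of the dC list, it was held by 42.9% of 140, 46.8% of 141, 44.1% of 93 and 67.7% of 31 dC-only windows, against 41.7% of 12, 58.3% of 24, 55.0% of 60 and 64.5% of 203 shared windows. The intervals of the classes overlapped in each quartile. Most shared windows came from the highest quartile and most dC-only windows from the lower ones, so the pooled shares above set peaks of different fold beside each other.

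Base composition went with the classes. Windows with a dC-only summit had a median of 24 CpG dinucleotides in 300 bases, those with a shared summit 22, those with a wt-only summit 5 and all windows 7. The GC-box letters GGGCGG, searched on both strands, were in 70.9% of dC-only, 64.9% of shared, 26.7% of wt-only and 35.7% of all windows. The ETS core CCGGAA was in 32.6% of dC-only, 31.4% of shared, none of the 15 wt-only (0 to 21.8%) and 14.9% of all windows. Promoter windows with a dC-only or a shared summit were thus alike in CpG content, and the part of base composition in the motif shares was not tested.

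**Figure D3:**
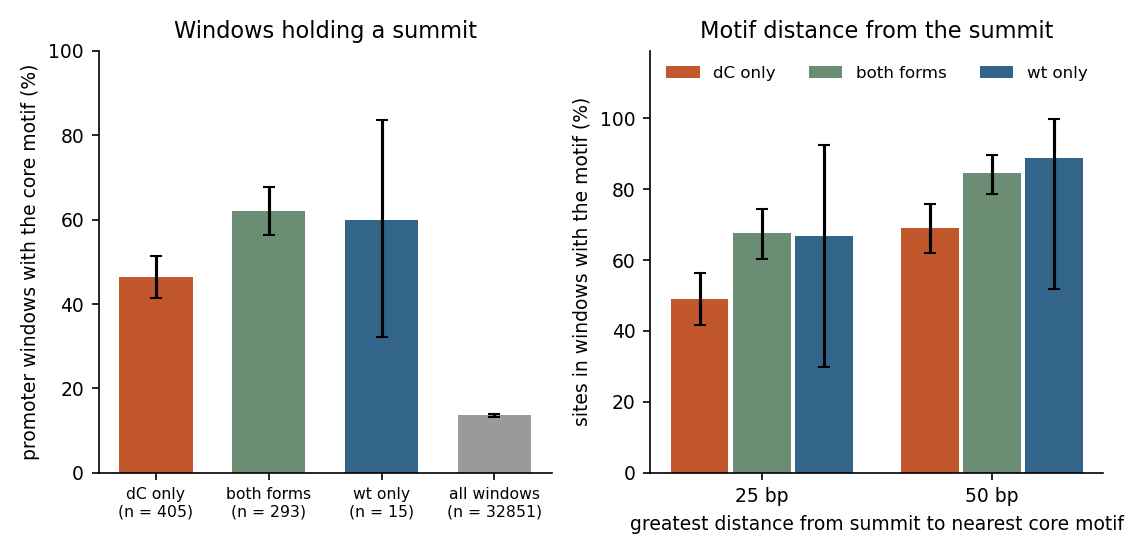
Left, share of 300-base promoter windows (%) with the EBF1 core for windows holding a dC-only summit (orange), a shared summit (green), a wt-only summit (blue) and all windows (grey). Right, share of sites in windows with the core (%) whose summit lies within 25 or 50 bp of it, with exact 95% intervals in both panels: dC-only sites are at 48.9% and 69.2%, below the shared sites at 67.6% and 84.6%.

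Brg1 peaks of A-MuLV cells with the same EBF1 forms were read by promoter position. Within 1 kb of a TSS, dC-only sites overlapped a Brg1 peak at 70.7% in dC cells (68.0-73.4%) and 68.7% in wt cells (66.0-71.4%). With Brg1 peaks held to a −log10 q of at least 10 the order turned, with 29.3% in dC cells (26.6-32.0%) and 36.8% in wt cells (34.0-39.6%). Farther away the shares were 28.3% in dC cells (27.05-29.53%) and 21.5% in wt cells (20.4-22.7%). Of the wt-only sites over 1 kb from a TSS, 5.97% had Brg1 in dC cells (4.76-7.39%) and 56.2% in wt cells (53.4-58.9%). At the 69 wt-only sites nearer a TSS it was 17.4% in dC cells (9.32-28.4%) and 53.6% in wt cells (41.2-65.7%). Shared sites were lower in dC cells too, at 54.2% in dC cells and 74.1% in wt cells over 1 kb from a TSS, and at 82.9% in dC cells and 89.5% in wt cells nearer to one. The Brg1 lists were of like length, 24420 peaks in dC cells and 24493 in wt cells. The Brg1 lists come from cells fixed in a different way, with EGS as well as formaldehyde.

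All 6 genes of the pre-BCR chains had EBF1 peaks with dC that overlapped wt peaks. Around Igll1 and Vpreb1, 3 dC peaks with folds of 41.3, 17.6 and 15.3 met 3 wt peaks of 36.5, 12.0 and 12.0. Vpreb2 had 3 dC peaks (17.1, 17.0 and 8.84) and 3 wt peaks (32.4, 9.69 and 7.32), all shared. Vpreb3 had 2 dC peaks (29.9 and 18.4) and 2 wt peaks (22.0 and 25.3). Cd79a, with 3 shared peaks, and Cd79b, the other signalling chain of the receptor, completed the group. Cd79b was the single member where the forms differed: besides 2 shared sites it had 2 dC-only peaks (9.31 and 7.50) and 1 wt-only peak (9.28).

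These counts stand against a background in which 32.9% of 21887 protein-coding genes had a dC peak within 10 kb of the gene body, 19.9% had a wt peak, 17.8% had both, 15.1% had a dC and no wt peak and 2.1% had a wt and no dC peak. Longer genes take in more peaks, and the lists differ in length: the median gene body was 3.27 kb for the pre-BCR chains, 89.4 kb for pre-BCR signalling, 84.9 kb for B-lineage transcription factors and 51.2 kb for V(D)J recombination, against 17.2 kb for all genes. The part of gene length in the counts was not tested. With both lists held to equal length, 4762 of the 21887 genes had a dC peak, 4355 had a wt peak and 3403 had both. A dC and no wt peak was then found for 1359 genes, and a wt and no dC peak for 952. Genes of pre-BCR signalling had a dC peak at 8 of 10 members and a wt peak at 6, also with lists of equal length. Blnk, which encodes the adaptor between the receptor kinase and its effectors, had 5 dC-only peaks with folds of 6.85, 7.23, 13.4, 8.76 and 8.69, and no wt peak. At 2 of the 5, Brg1 was called in both lines. Lyn, a kinase gene, had 5 dC and 2 wt peaks, with highest folds of 24.4 with dC and 12.0 with wt, and Btk had a shared peak of 19.7 with dC and 9.41 with wt.

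Transcription factor genes of the B lineage had a dC peak at 20 of 22 members and a wt peak at 18, every one of the 18 also with dC. With both lists held to equal length it was 17 with dC and 18 with wt, with no member called with dC alone. Ebf1 itself had 9 dC and 4 wt peaks. The 4 shared sites had dC folds of 20.5, 10.3, 6.30 and 6.15 and wt folds of 5.64, 14.8, 9.63 and 7.58 in genome order, so the highest site of Ebf1 differed between the lists. Its 5 dC-only peaks had folds of 7.12 to 8.08, and none overlapped Brg1 in either line. Of all dC-only sites over 1 kb from a TSS, 28.3% had Brg1 in dC cells and 21.5% in wt cells. The constructs carry EBF1 coding sequence and no exon table was used, so peaks over Ebf1 exons were not set apart. Pax5, the commitment factor gene, had 4 dC and 2 wt peaks. Its shared pair lay 5342 and 4522 bp inside the gene from the TSS, with folds of 26.8 and 39.2 with dC and 17.9 and 31.4 with wt.

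The other members differed in number of peaks more than in state. The dC list is the longer, and the 22 members together had 60 dC and 33 wt peaks. Summed in the same way over all protein-coding genes it was 11875 dC and 6305 wt peaks. Runx1 had 6 dC peaks and 1 wt peak, Ets1 had 4 and 1, Tcf4 had 5 and 2, and Bach2 had 6 and 4, in the order dC and wt. Bcl6 (1 peak, fold 7.12) and Irf8 (2 peaks, up to 7.39) were called with dC and not with wt. Ikzf3, which encodes Aiolos, went the other way, with 1 dC and 3 wt peaks. Its wt-only peaks lie in a stretch of 0.0917 Mb over Ikzf3 and Zpbp2 with no EBF1 or Brg1 peak in dC cells and 2 EBF1 and 13 Brg1 peaks in wt cells, and whether the DNA is equally present there was not tested. Pou2f2, an octamer factor gene, had 2 dC and 3 wt peaks.

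**Figure D4:**
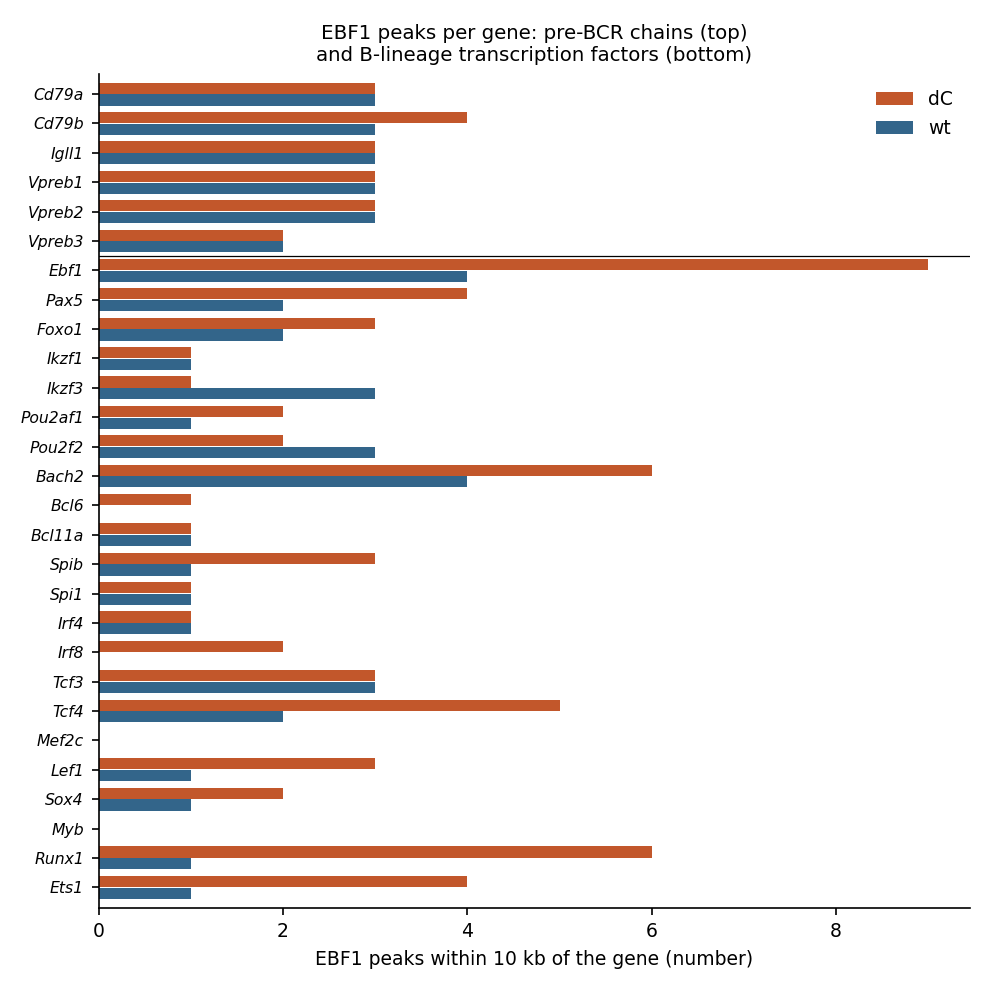
Number of EBF1 peaks within 10 kb of each gene of the pre-BCR chains and B-lineage transcription factors, with dC (orange, upper bar) and wt (blue, lower bar), 1 library each. The dC bar is longer at most genes with unequal bars, as at Ebf1 (9 against 4) and Runx1 (6 against 1), and the wt bar is longer at Ikzf3 and Pou2f2. The dC list is the longer over the whole genome, with 11147 peaks against 6155.

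Surface receptor genes had a dC peak at 13 of 20 members and a wt peak at 11, with 10 in common, and with lists of equal length 10 had a dC and 11 a wt peak. Fcrla (3 peaks, up to 9.58), Fcrl5 (6.85) and Siglecg (8.21) had dC peaks alone. Cd72, an inhibitory receptor gene, was the single member with wt alone, at a fold of 13.4, a site 2627 bp before its TSS with Brg1 in wt and not in dC cells. Genes of V(D)J recombination, the joining of receptor gene segments, had a dC peak at 6 of 10 and a wt peak at 3. With lists of equal length it was 2 with dC and 3 with wt, and none had a dC peak alone. At full length, Dntt (7.94), Prkdc (6.16), Xrcc5 (6.70 and 7.39) and Nhej1 (8.21) had dC peaks alone, Xrcc6 (10.6) a wt peak alone, and Rag2 a shared site of 16.4 with dC and 7.84 with wt. Proliferation and survival genes had a dC peak at 12 of 19 and a wt peak at 10 (10 and 10 with lists of equal length). Bcl2l1, a survival gene, had 8 dC and 2 wt peaks, and Ccnd3, a cyclin gene, 8 dC and 3 wt peaks. Myc (9.86) and Cdkn1b (6.57) had a dC peak and no wt peak.

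Genes of other lineages also had EBF1 peaks. Of 16 T-lineage genes 7 had a dC peak and 6 a wt peak (5 and 6 with lists of equal length), and Tcf7 was highest, with folds of 38.1 with dC and 16.0 with wt. Cd5 (7.94) was the single one with dC alone. Of 14 myeloid genes, 6 had a dC peak and 2 a wt peak (3 and 2 with lists of equal length). Cebpb (8.28), Csf1r (7.39), Elane (6.06) and Fcgr3 (7.19) had dC peaks alone, none with Brg1 in either line, and Itgam, an integrin gene, had a shared site of 33.1 with dC and 25.3 with wt. Stem and progenitor genes had 6 of 12 with dC and 3 with wt (4 and 3 with lists of equal length). Hoxa9 (7.18) and Lmo2 (6.30) were among those called with dC alone, and Erg, an ETS factor gene, had folds of 54.8 with dC and 35.5 with wt. Erythroid and megakaryocyte genes had 3 of 10 with dC and 4 with wt, Gp9 (10.1) having the wt peak alone, and innate lymphoid and NK genes had 2 of 12, Id2 and Tox, with each form.

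Subunit genes of BAF and PBAF had a dC peak at 9 of 17 and a wt peak at 7, and with lists of equal length 7 had a dC and 7 a wt peak. Smarca4, which encodes Brg1, had 5 dC peaks and 1 wt peak. Its shared site, 9406 bp inside the gene, had folds of 15.9 with dC and 11.7 with wt, and its dC-only peaks had 13.3, 8.19, 5.61 and 5.45. Smarca2, the alternative ATPase gene, had 3 dC-only peaks (6.85, 6.30 and 8.76), Brd9 (6.51) and Dpf2 (6.29) 1 each, and Pbrm1 (4.77) a wt-only peak. In the EBF family, Ebf1 and Ebf4 had peaks with both forms, and Ebf2 and Ebf3 with neither.

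The ubiquitously expressed genes, a list without a B-cell role, had a dC peak at 7 of 14 and a wt peak at 3 (4 and 3 with lists of equal length). Hprt (6.85) and Pgk1 (7.39) had dC-only summits 23 bp after and 73 bp before their TSS, in windows without the core, and B2m (14.8) and Tubb5 (up to 21.8) also had dC peaks alone. The members with dC and not wt were 4 of 14 in this list and 4 of 14 in the myeloid list, against 15.1% of all genes. With both lists held to equal length, 2 of 14 and 1 of 14 were left, against 1359 of all 21887 protein-coding genes.

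**Figure D5:**
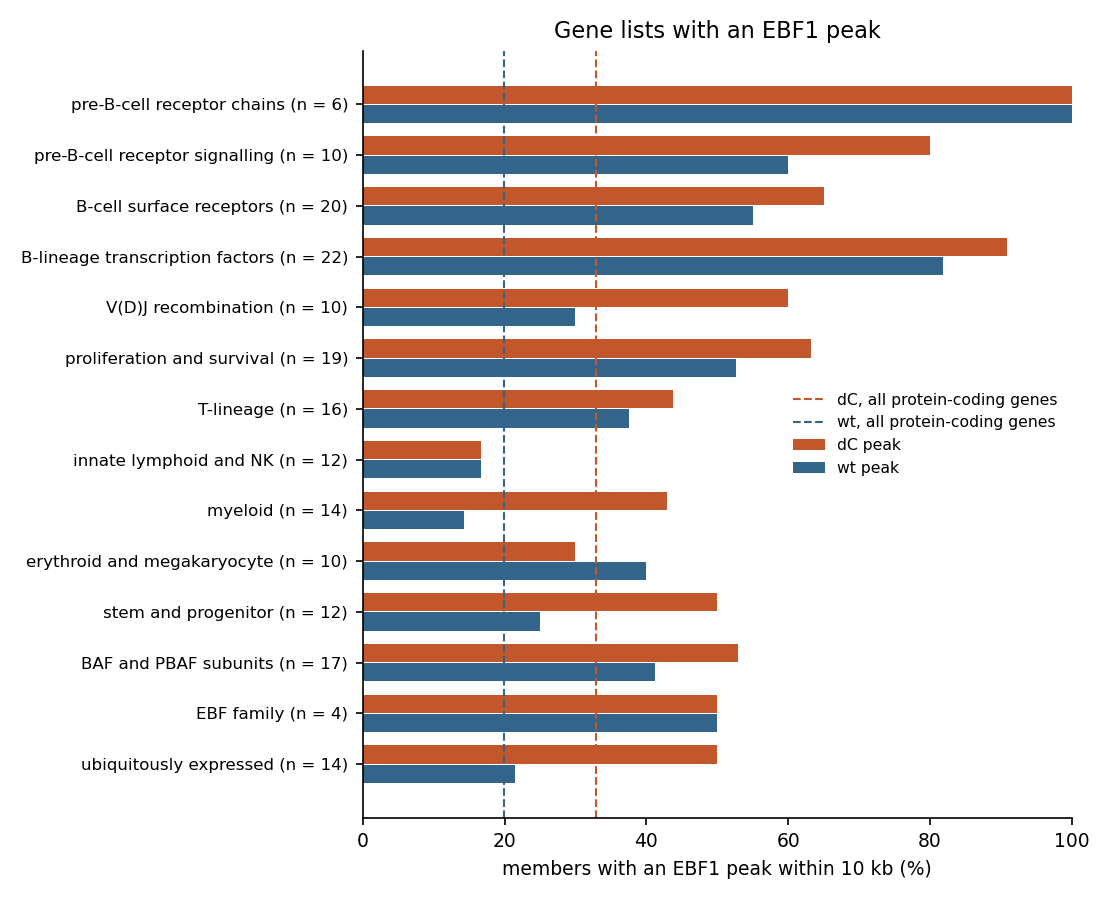
Share of members of 14 gene lists (%) with an EBF1 peak within 10 kb, for dC (orange, upper bar) and wt (blue, lower bar), 1 library each. Dashed lines give all protein-coding genes, 32.9% with dC and 19.9% with wt. Every list except the innate lymphoid and NK and the erythroid and megakaryocyte lists is above the dC line, and every list except the innate lymphoid and NK and the myeloid lists is above the wt line. Gene lengths differ between lists.

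Some single genes and stretches held several dC-only or wt-only sites. Whether this was more than the number of sites and the gene lengths would give was not tested. Hivep3, a zinc-finger gene, had the most dC-only peaks within 10 kb, 8 of its 10 dC peaks. Chchd6, Hip1, Arid1b, Foxp1, Ablim1, Bcl2l1 and Msi2 followed with 6 each, and St6galnac5 and Mrtfa with 5. Chchd6 had all 6 and St6galnac5 all 5 without a wt peak. St6galnac5 lies in a stretch of 0.543 Mb with 8 EBF1 and 10 Brg1 peaks in dC cells and none of either in wt cells. The wt-only peaks were most numerous at Adamtsl1, Mapkap1 and Adamts7, with 4 each. At Mapkap1, which encodes a subunit of the kinase complex mTORC2, and at Adamts7, a protease gene, there was no dC peak. Clint1, Emid1, Heyl, Ccdc146, Gm1604b, Mad1l1 and D630045J12Rik had 3 each. These are mostly long genes: Hivep3 spans 404 kb and Adamtsl1 915 kb.

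In genome order, neighbouring one-form sites were counted as runs until a site of another class came between. The dC-only sites, the more numerous class, formed 2891 runs, 308 of them with 5 or more sites and the longest with 13. The wt-only sites formed 1113 runs, 6 of them with 5 or more. Of those 6, 4 lay on chromosome 6 within Igk, with 18, 10, 7 and 5 sites. Over the run of 18 (chromosome 6, 68926530 to 69518097) there were 0 Brg1 peaks in dC cells and 65 in wt cells. That run lay in a stretch of 0.692 Mb (68884560 to 69576265) with no EBF1 or Brg1 peak in dC cells. In wt cells the stretch had 18 EBF1 and 70 Brg1 peaks, and whether the DNA is equally present there was not tested. Igk held 15 EBF1 peaks with dC and 62 with wt in all, and its wt-only peaks were 3.34% of that class.

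Outside Igk, a run of 8 wt-only sites lay on chromosome 4, 53677172 to 55457694, over genes that include Fsd1l, Tal2, Tmem38b, Zfp462 and Rad23b. It overlapped a stretch of 2.06 Mb (chromosome 4, 53278716 to 55335403) with no EBF1 or Brg1 peak in dC cells and with 7 EBF1 and 18 Brg1 peaks in wt cells. The longest run of dC-only sites, 13 on chromosome 11, 82828032 to 83824662, covered the Slfn (Schlafen) genes and the chemokine genes Ccl5, Ccl9, Ccl6 and Ccl3. It had 54 Brg1 peaks in dC and 26 in wt cells. These chemokine genes lay in a stretch of 0.280 Mb (83473453 to 83753389) with no EBF1 or Brg1 peak in wt cells. In dC cells that stretch had 5 EBF1 and 25 Brg1 peaks. A run of 11 lay elsewhere on chromosome 11, 21726364 to 22868043, over Wdpcp, Otx1, Ehbp1, Tmem17 and B3gnt2. It fell in a stretch of 1.49 Mb (chromosome 11, 21400973 to 22891306) with 11 EBF1 and 33 Brg1 peaks in dC cells and none of either in wt cells. These stretches, like those in Igk and around Ikzf3 and St6galnac5, were picked for having no EBF1 or Brg1 peak in a line. That both proteins were missing together thus follows from the choice. Whether the DNA is equally present in both lines was not tested.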

How the data were processed

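EBF1 ChIP-seq of 1 dC and 1 wt A-MuLV library was compared, with Brg1 lists of A-MuLV cells carrying the same forms set beside it. Per the submitters' processing notes, the tools were MACS2 2.1.2, deepTools 3.3.1, SAMtools 1.9 and Bowtie2 2.3.3.1, with build GRCm38. Not given in the sources used here are the calling threshold, duplicate handling and which input went with which library. The deposited peak lists hold the authors' fold enrichment (a ratio), −log10 p and −log10 q at the summit, and a score derived from the −log10 q. Depth is unknown. Fetal liver Brg1 lists were not used here, and 3 dC peaks on scaffolds were left out.

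Overlaps, shares and exact 95% intervals were computed in Python 3.11.15 with numpy 2.4.6, pandas 2.3.3 and scipy 1.17.1, in code tested on simulated data. Figures used matplotlib 3.10.9. Gene bodies (21887 protein-coding genes) were extended by 10 kb; 32851 RefSeq promoter windows (GRCm38.p6) gave TSS positions and sequence, and 149 of 185 list genes had one. No genome was used, so motifs were read in promoter windows only. Summit pileups were solved from the deposited fold and p-value under a Poisson background.

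Members and the 14 gene lists were chosen with earlier results of these data known. Genes named are list members with a peak with 1 form only and the highest by fold of each list, the 10 genes with most dC-only and most wt-only peaks, those nearest the 10 highest peaks of a class, Ebf1 and Smarca4. Some genes that the rule names are not reported here. Sequences shown, runs, peak-free stretches and Igk were chosen after their values were seen. The alternatives tried were lists of equal length, a −log10 q minimum of 20, other overlap rules, other gene windows, the longer or the core motif and a −log10 q of at least 10 for Brg1.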

Additional observations from a re-analysis of the deposited data

How the results depend on the processing

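No paired analysis was possible because each form had 1 library. List length and threshold moved most shares. With a −log10 q of at least 20, 45.7% of dC peaks were called with wt and 73.2% of wt peaks with dC, dC-only peaks numbered 3117, and 2127 genes had dC and not wt and 2395 both. With lists of equal length these were 62.8% and 63.3%, with 2291 dC-only and 2261 wt-only peaks, and 1359 genes with dC and not wt against 952 with wt and not dC. Near-equal counts of one-form peaks follow from equal lengths by construction. Counting peaks within 1000 bp as shared gave 43.8% of dC peaks. Asking for 50% of the shorter peak to be overlapped changed no class, and summits within 200 bp moved no share beyond its interval. Genes with both forms were 7650 with a 50 kb extension and 2393 with none. The share within 1 kb of a TSS, under alternatives chosen after seeing the data, was 20.7% of dC-only and 19.9% of shared sites at a −log10 q of at least 20 and 19.5%, 20.4% and 6.34% of dC-only, shared and wt-only sites with equal lengths. Against the longer motif of the design, the core gave 46.4%, 62.1% and 60% of dC-only, shared and wt-only windows. With Brg1 at a −log10 q of at least 10, dC-only sites had 15.1% in dC and 13.3% in wt cells, shared sites 29.0% and 47.3%, and wt-only sites 1.39% and 26.3%. The order of dC-only sites within 1 kb of a TSS turned to 29.3% in dC and 36.8% in wt cells. Of 112 single counts over gene lists, 42 moved by more than 1.5 times or to or from 0 and 70 did not.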
